A study of Mus musculus with 6 samples.

Results

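Sertoli cell genes were followed in single-cell RNA-seq of the mouse testis through 10 genes of 32285 in the count matrices. They were chosen by name as genes for secreted products of Sertoli cells (Clu, Defb19, Cst9, Cst12, Trf and Inha), for the receptor of follicle-stimulating hormone (Fshr) and for transcription factors of the cell type (Sox9, Wt1 and Gata4). The testes came from wild-type males (C57BL/6 in the labels, C57BL/6N in the study's methods), 8 weeks old, fed a high-fat (HFD) or a low-fat (LFD) diet for the last 2 weeks, with 3 libraries for each diet and, in the study's methods, 3 mice. The diets were compared to ask whether a short exposure changes cells of the testis. Sample titles set the diet used here, but for all 6 libraries the deposited files are named for the other diet. The study's own table of barcode numbers per library goes with the file names. For that reason the groups are called labelled HFD and labelled LFD, and each difference between them changes sign if the file names are right.

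Sertoli cells are the somatic cells of the seminiferous epithelium. They surround the developing germ cells, form the blood-testis barrier with their tight junctions and secrete carriers, protease inhibitors and hormones into the tubule. Follicle-stimulating hormone from the pituitary acts on them through its receptor, and they return inhibin, which lowers the release of that hormone. Sox9, Wt1 and Gata4 act in the gonad from its first formation and remain in use in adult Sertoli cells.

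The 6 libraries held 48939 barcodes and 429495465 UMIs (unique molecular identifiers, of which each stands for 1 captured RNA molecule), with 39196921 to 95845514 UMIs in a library. Barcodes were grouped into 14 clusters without the 10 genes. Cluster 11, of 720 barcodes (1.47% of all) with a median of 1953.5 UMIs, was the highest of the 14 for 14 of 15 other Sertoli markers and is called Sertoli-like. It held 257, 26 and 29 barcodes in the libraries labelled HFD (replicates 1, 2 and 3) and 283, 77 and 48 in those labelled LFD. Any 2 libraries shared 12 to 28 barcode sequences. The 2 replicate 1 libraries stood apart: the 4 haemoglobin genes of an erythroid list summed to at most 0.0209 CPM (the standard scale that divides the UMIs of a gene by all UMIs of its library or group of barcodes) in them and to 30.5 to 99.7 in the other 4, so these pairs are also given separately.

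In Sertoli-like barcodes markers of germ cells were present too. A list of 5 elongating spermatid genes summed to 18857 to 63634 CPM there, against 22457 to 55046 in the whole libraries. The Leydig cell list summed to 448 CPM in Sertoli-like barcodes of HFD replicate 2 and to 10.7 to 133 in the other 5 libraries. Of the peritubular and stromal list 4 of 6 genes had UMIs there (2.68 to 13.5 CPM in sum), and Dcn and Tcf21 had 0. Of the macrophage list it was 4 of 6 (0 to 25.5 CPM), with Adgre1 and Lyz2 at 0. The T cell list, of which 1 of 3 genes had UMIs and Cd3g and Cd8a had 0, summed to 58.1 CPM in HFD replicate 2 and to 10.7 to 21.7 CPM in the other 5 libraries. All 3 endothelial genes had UMIs (0 to 6.97 CPM), and 0 of the 4 erythroid genes. Mitochondrial genes took 25.6% of UMIs in Sertoli-like barcodes of LFD replicate 3 and 4.29% to 10.6% in the other 5 libraries. The part of these other cells, and of the mitochondrial share, in the levels below was not tested.

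Defb19 and the paired cystatins lie in gene families on chromosome 2, where their neighbours differed in level, as described further on. The sequences before the start of Cst12 and Cst9 are shown for that contrast, and that of Fshr for the E-box word CACGTG it holds. On GRCm38 the gene models of Cst12 (chr2:148789361-148793546, plus strand) and Cst9 (chr2:148835147-148838738, plus strand) are 41600 bases apart, and Defb19 is at chr2:152576086-152580312 on the minus strand. Fshr is at chr17:88984952-89200675 on the minus strand. The lines below give the 250 bases before the RefSeq start of each gene (GRCm38.p6), 5′ to 3′ on the strand of the gene: chr2:148789115-148789364 for Cst12, chr2:148834897-148835146 for Cst9 and chr17:89200676-89200925 for Fshr. The Cst9 and Fshr windows are upstream of the annotated gene, whereas the last 4 bases of the Cst12 window are inside its Gencode model. Capitals mark the E-box letters CACGTG.
Cst12 upstream: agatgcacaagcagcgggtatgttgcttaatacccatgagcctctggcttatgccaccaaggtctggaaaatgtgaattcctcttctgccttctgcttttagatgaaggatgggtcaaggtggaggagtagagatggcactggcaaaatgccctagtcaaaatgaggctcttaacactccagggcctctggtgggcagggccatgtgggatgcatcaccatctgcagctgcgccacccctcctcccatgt
Cst9 upstream: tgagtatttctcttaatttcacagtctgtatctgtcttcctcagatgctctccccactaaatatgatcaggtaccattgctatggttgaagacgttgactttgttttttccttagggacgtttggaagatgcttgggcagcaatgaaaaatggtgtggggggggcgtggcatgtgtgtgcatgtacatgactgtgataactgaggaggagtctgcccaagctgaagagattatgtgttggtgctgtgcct
Fshr upstream: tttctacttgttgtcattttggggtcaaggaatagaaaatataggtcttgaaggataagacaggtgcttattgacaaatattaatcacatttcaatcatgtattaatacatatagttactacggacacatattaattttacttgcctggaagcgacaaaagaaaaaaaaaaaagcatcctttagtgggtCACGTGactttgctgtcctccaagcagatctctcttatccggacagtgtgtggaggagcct

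On both strands, these windows were searched for 4 short words. CACGTG is an E-box, which basic helix-loop-helix factors bind, and it was found in the Fshr window at bases -61 to -56 from the start and in 6.02% of 32851 upstream windows of that length. The windows of Cst9 and Cst12 held none of these exact words, and variants of the words were not searched for in any window. AGATAA, which factors of the family of Gata4 bind, stood in 9.99% of all windows. For ACAATG, which factors of the family of Sox9 bind, the share was 10.7%. The TATA box TATAAA stood in 12.4%. The Cst9 and Cst12 windows were identical at 47.6% of aligned columns. With the Fshr window the share was 48.1% for Cst9 and 46.5% for Cst12. Pairs with the Inha window, which is not printed, lay between 46.3% and 49.4%. The RefSeq start of Inha lies 532 bases inside its Gencode model, so that window is not upstream of the annotated gene.

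Defb19, Clu, Cst12 and Cst9 made up most of the member UMIs of Sertoli-like barcodes, and the transcription factors and Fshr stood far below them. Defb19 encodes a beta-defensin, a small cationic peptide. Its level in Sertoli-like barcodes was 4169, 2929 and 2492 CPM in the libraries labelled HFD and 5098, 2004 and 5054 CPM in those labelled LFD (replicates 1, 2 and 3 in each). Clu encodes clusterin, an extracellular chaperone that was first known as a product of Sertoli cells. It stood at 3633, 1535 and 2021 CPM against 4124, 1412 and 3661 CPM. The groups overlapped for both genes, and LFD replicate 2 was the lowest library for each.

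Cst9 and Cst12 encode secreted proteins of the cystatin family, whose classical members inhibit cysteine proteases. Cst9 was measured at 2002, 1046 and 1570 CPM in the libraries labelled HFD and at 2436, 656 and 1923 CPM in those labelled LFD. Cst12 was measured at 2199, 1162 and 1733 CPM against 2502, 872 and 2516 CPM. Cst12 was above Cst9 in all 6 libraries, by a ratio of 1.03 to 1.33.

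Trf encodes transferrin, with which Sertoli cells hand iron to germ cells behind the barrier. Its UMIs were fewer, at 56.5, 8.30 and 33.3 CPM in the libraries labelled HFD and 52.2, 17.1 and 35.5 CPM in those labelled LFD. The Trf gene model (chr9:103204001-103230444, minus strand) overlaps the protein-coding model Gm20425 on the same strand, and their reads may not be separable. Inha encodes the alpha subunit of inhibin. It stood at 553, 315 and 367 CPM against 580, 239 and 764 CPM, and LFD replicates 2 and 3 were its lowest and highest libraries. LFD replicate 3 is also the library of highest mitochondrial share, and it was highest for Cst12 and Gata4 too but for no other member.

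Wt1, a zinc finger factor needed to maintain the identity of Sertoli cells, stood at 122, 83.0 and 111 CPM in the libraries labelled HFD and 153, 35.3 and 149 CPM in those labelled LFD. Sox9, the factor that directs the early gonad to the Sertoli fate, stood at 94.4, 33.2 and 96.3 CPM against 149, 46.0 and 142 CPM. Gata4, a zinc finger factor of several somatic cell types of the gonad, stood at 27.1, 24.9 and 18.5 CPM against 38.7, 12.8 and 53.3 CPM. For all 3 factors the diets overlapped, and the 3 libraries labelled LFD spread more widely than the 3 labelled HFD. Fshr, a G protein-coupled receptor, was found in 7, 1 and 0 UMIs in Sertoli-like barcodes of the libraries labelled HFD and in 13, 4 and 2 UMIs of those labelled LFD. That is 5.42, 8.30 and 0 CPM against 10.9, 2.14 and 7.11 CPM, levels that rest on few molecules.

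Over the 6 libraries the order of mean levels was Defb19 (3624 ± 1334 CPM, SD, n = 6), Clu (2731 ± 1207), Cst12 (1831 ± 697), Cst9 (1605 ± 658), Inha (470 ± 197), Wt1 (109 ± 44.4), Sox9 (93.5 ± 47.6), Trf (33.8 ± 18.9), Gata4 (29.2 ± 14.7) and Fshr (5.65 ± 4.03). A UMI counts an RNA once whatever its length, so these levels compare molecules captured from each gene. Of neighbours in this order, Inha and Wt1, and Gata4 and Fshr, had ranges over libraries that did not meet, and the ranges of all other neighbours overlapped. Within a library the order was steadier. Each gene was above the next in 6 of 6 libraries, except that Wt1 was above Sox9 in 5 of 6 and Trf above Gata4 in 4 of 6. For 7 of the 10 genes LFD replicate 2 was the lowest library, as the plot of levels by library shows. The 15 other Sertoli markers summed to 2649 CPM in its Sertoli-like barcodes and to 4265 to 7854 CPM in those of the other 5 libraries. Germ cell lists in these barcodes went both ways. In LFD replicate 2 the pachytene spermatocyte list was the highest, at 1760 CPM against 736 to 1170 CPM. The larger elongating spermatid list was the lowest there, at 18857 CPM against 28730.5 to 63634 CPM.

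**Figure D1:**
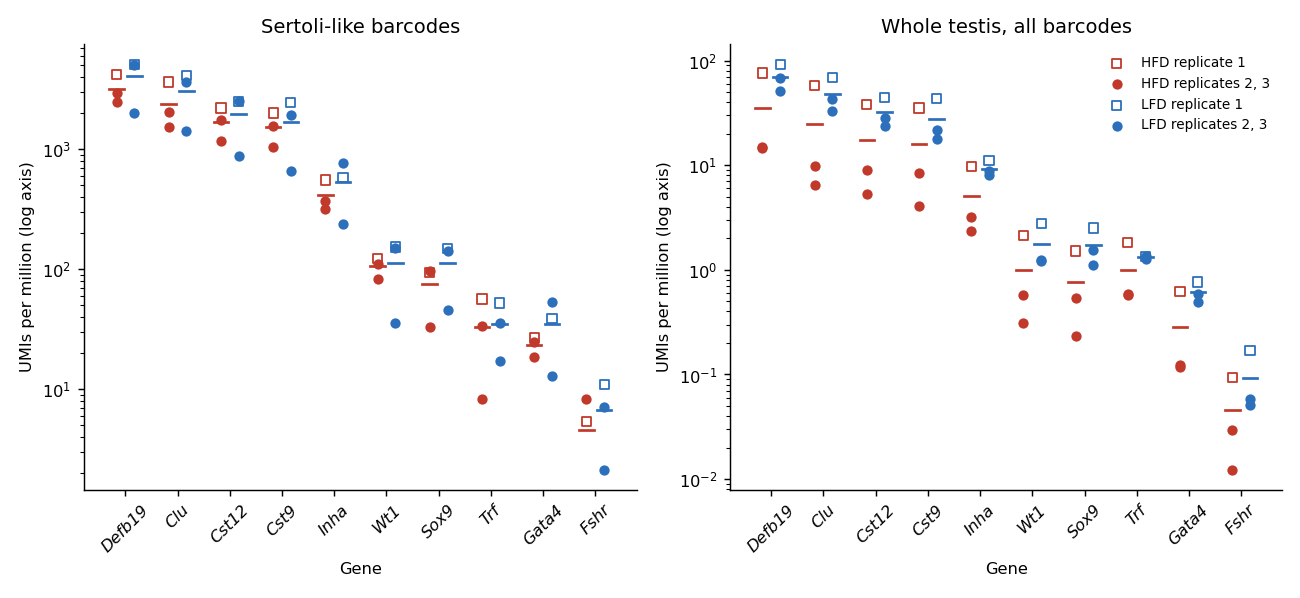
Level of the 10 genes in CPM (log axes) in Sertoli-like barcodes (left) and in all barcodes of a library (right), with 1 point for each library, open squares for the replicate 1 libraries and a bar at the mean of each diet label. The 3 red and 3 blue points of each gene overlap in both panels, whereas on the right the filled red points of HFD replicates 2 and 3 lie below the filled blue points of LFD replicates 2 and 3. Fshr in Sertoli-like barcodes of HFD replicate 3 (0 UMIs) cannot be drawn on a log axis.

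Most molecules of 9 of the 10 genes came from the 720 Sertoli-like barcodes, and Trf was the exception. With all libraries pooled, 86.0% of Clu UMIs, 83.8% of Sox9, 79.8% of Cst12, 79.5% of Cst9, 79.5% of Wt1, 75.8% of Defb19, 71.0% of Inha and 66.3% of Gata4 UMIs were in them. Of the 31 Fshr UMIs, 27 were in Sertoli-like barcodes and 4 in the other 48219. Trf had 36.7% of its UMIs there. The pooled levels inside and outside were 3513 and 13.3 CPM for Defb19, 2787 and 5.37 CPM for Clu, 439 and 2.12 CPM for Inha, 97.2 and 0.297 CPM for Wt1, and 90.6 and 0.207 CPM for Sox9. The Sertoli-like cluster was the highest of the 14 for 9 of the 10 genes, and for 6.24% of the 19319 genes with at least 100 UMIs. These are descriptions, with no test, since the cluster was made from the same barcodes.

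Summed over the 10 genes, the share of UMIs in Sertoli-like barcodes was 77.9%, 30.9% and 72.4% in the libraries labelled HFD and 87.3%, 82.0% and 74.7% in those labelled LFD, a mean of 70.9% ± 20.3 (SD, n = 6). HFD replicate 2 was far below the others. In this library 962 member UMIs (34.5%) were in cluster 12, of whose 561 barcodes 531 came from that library, with a median of 23832 UMIs per barcode. Without HFD replicate 2 the mean share was 78.9%.

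A UMI of Defb19 was found in 87.2% of Sertoli-like barcodes and in 8.73% of those outside. The same shares were 82.2% and 3.66% for Cst9, 77.2% and 3.95% for Cst12, 74.9% and 3.61% for Clu and 40.8% and 1.72% for Inha, at median depths of 1953.5 UMIs inside and 2739 outside. Among the rarer genes, Wt1 was found in 19.6% and 0.238% of barcodes, Sox9 in 19.3% and 0.176%, Gata4 in 11.7% and 0.120%, Trf in 9.31% and 0.518% and Fshr in 3.47% and 0.00830%. With each barcode thinned to 1000 UMIs, the mean shares over random draws inside and outside were 76.2% and 2.92% for Defb19, 65.1% and 1.26% for Cst9, 59.6% and 1.09% for Clu and 22.1% and 0.331% for Inha. All the shares fell, and the gap between inside and outside remained wide.

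Clu relative to Defb19 differed inside and outside. There were 0.872, 0.524 and 0.811 Clu UMIs for each Defb19 UMI in Sertoli-like barcodes of the libraries labelled HFD and 0.809, 0.705 and 0.724 in those labelled LFD. Outside they were 0.416, 0.401 and 0.374 against 0.430, 0.336 and 0.456. Clu was thus lower relative to Defb19 outside in every library. Cst9 and Cst12 were also lower relative to Defb19 outside in every library. With the libraries pooled, Cst9 per Defb19 was 0.442 inside and 0.356 outside, and Cst12 per Defb19 was 0.497 and 0.392. Cst12 per Cst9 and Inha per Defb19 did not move one way. Cst12 per Cst9 was 1.12 inside and 1.10 outside in the pooled libraries. Inha per Defb19 was 0.133 and 0.112 in HFD replicate 1 but 0.147 and 0.380 in HFD replicate 3. How much of the outside signal is free RNA from broken cells was not tested.

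**Figure D2:**
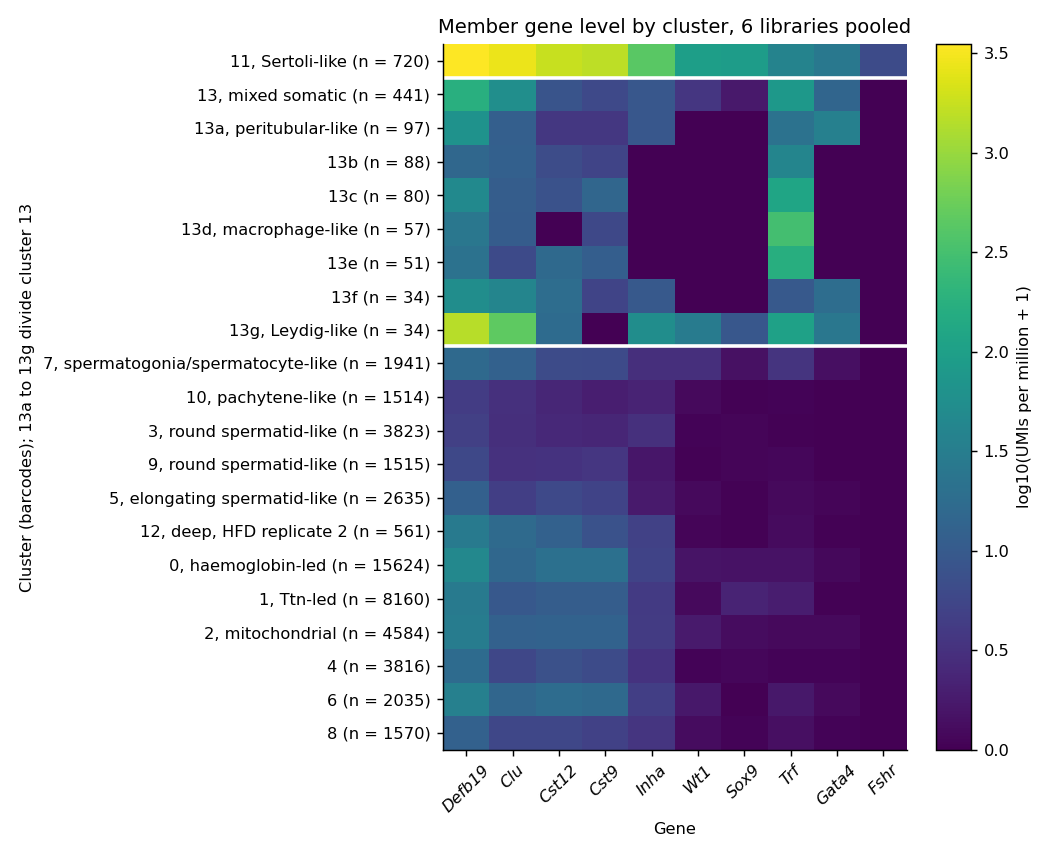
Level of the 10 genes as log10(CPM + 1), with the 6 libraries pooled, in the Sertoli-like cluster (top row), in the mixed somatic cluster 13 and its sub-clusters 13a to 13g, and in the other 12 clusters (below the second white line). The top row is the brightest in 9 of the 10 columns among the 14 clusters, and the bright cells outside it are Defb19 and Clu in Leydig-like sub-cluster 13g and Trf in macrophage-like sub-cluster 13d.

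Outside the Sertoli-like cluster, Defb19 and Clu were next highest in a small Leydig-like sub-cluster (13g in the heat map, 34 barcodes, none from LFD replicate 1), at 1473 and 460 CPM. Leydig cells are the androgen-making cells between the tubules. The Defb19 level of the whole sub-cluster was 1996, 1755 and 1559 CPM in the libraries labelled HFD and 165 and 1964 CPM in LFD replicates 2 and 3. The molecules came from few barcodes: the 6 barcodes with at least 15 UMIs of Insl3, the insulin-like hormone of Leydig cells, held 346 of the 359 Defb19 UMIs and 111 of the 112 Clu UMIs. The other 28 barcodes had 0 UMIs of Insl3 and of Cyp17a1, another Leydig cell marker, and at most 6 of Defb19. They include all 11 barcodes of LFD replicate 2, so its 165 CPM comes from barcodes without these markers. By these markers the name Leydig-like rests on the 6 barcodes with Insl3. Those 6 barcodes, from 4 libraries, were singled out after their values were seen. None was marked as a doublet.

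The cystatins did not follow Defb19 into these barcodes. Cst9 had 0 UMIs in the whole sub-cluster, which allows a level of up to 12.3 CPM (3 UMIs, counting error only), and Cst12 had 4. The barcode with most Defb19, 108 UMIs, had 64 UMIs of Insl3 and 21 of Cyp17a1, an enzyme of androgen synthesis, with 1 UMI of Clu. The next held 72 UMIs of Defb19 with 292 of Insl3, 99 of Cyp17a1 and 34 of Clu. Sox9 and Fshr had 0 UMIs in all 6 of these barcodes.

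Trf was highest in macrophage-like barcodes, at 307 CPM against 37.2 CPM in Sertoli-like ones. By library it was 372, 162 and 346 CPM in macrophage-like barcodes of the libraries labelled HFD and 212, 206 and 507 CPM in those labelled LFD, from 57 barcodes of which 32 had a Trf UMI. Every one of these values was above the same library's Sertoli-like level. Gata4 was also found in peritubular-like barcodes, the contractile cells around the tubule, at 34.1 CPM (25 UMIs in 19 of 97 barcodes) against 25.5 CPM in Sertoli-like ones. Inha had 307 UMIs, 9.89% of its total, spread over round spermatid-like cluster 3 at 2.10 CPM, close to its level of 2.12 CPM in all barcodes outside. Defb19 was lower in cluster 3, at 3.77 CPM against 13.3 CPM in all barcodes outside. Inha per Defb19 was thus 0.557 in cluster 3 and 0.159 in all barcodes outside, with the libraries pooled.

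In a single Sertoli-like barcode a median of 4 of the 10 genes was detected, with a median of 4 or 5 in each library. All 10 were found in 9 barcodes and none in 15. At least 5 genes were found together in 279 of 720 Sertoli-like barcodes (38.8%) and in 40 of 48219 others (0.0830%), which at a median of 26750.5 UMIs were much deeper than most barcodes. Of these 40, 14 came from HFD replicate 2 and 10 of those were in cluster 12. The highest number outside was 7 genes, in 1 barcode.

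**Figure D3:**
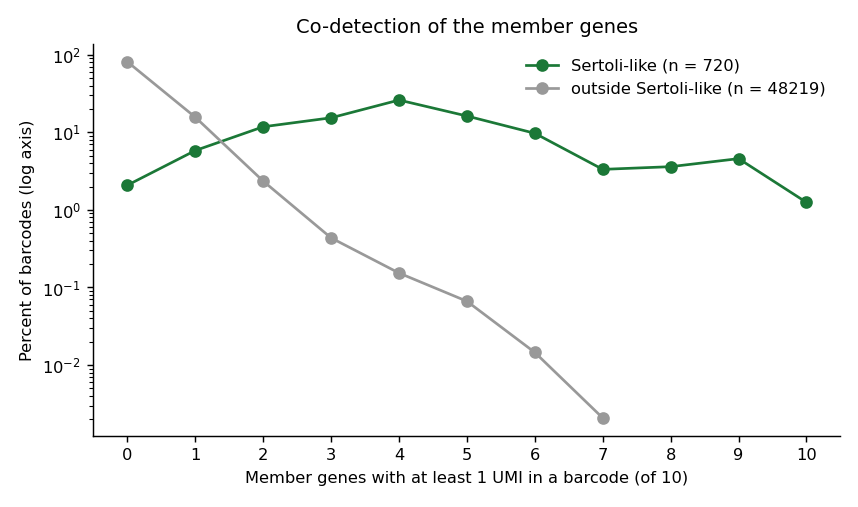
Percent of barcodes (log axis) by the number of the 10 genes with at least 1 UMI, for 720 Sertoli-like barcodes (green) and 48219 other barcodes (grey). The green line peaks at 4 genes and reaches 10, and the grey line falls from 0 genes and ends at 7.

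The 4 abundant genes Clu, Defb19, Cst9 and Cst12 were all found in 405 Sertoli-like barcodes (56.3%) and in 77 outside (0.160%). The 3 transcription factors were seen together much less often: all 3 in 53 barcodes (7.36%), whose median depth was 24982 UMIs, and none in 501 (69.6%), whose median depth was 1704 UMIs. Outside, 1 barcode held all 3. Sox9 and Wt1 were both detected in 81 barcodes (11.3%). Depth moved with these counts. The 89 Sertoli-like barcodes above 10000 UMIs had a median of 8 genes, with Sox9 in 88.8%, Wt1 in 84.3%, Gata4 in 59.6%, Trf in 49.4% and Fshr in 24.7% of them.

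In the 376 barcodes of 1000 to 2000 UMIs the median was 3 genes, and Sox9 and Wt1 were found in 5.05% and 5.59%. The levels also differed by depth. Clu stood at 3355 CPM above 10000 UMIs and at 1216 CPM between 1000 and 2000, whereas the elongating spermatid list stood at 28993 and 53712 CPM. The 89 deep barcodes held 69.8% of the UMIs of Sertoli-like barcodes, so the sums by library lean on them. Across barcodes of a library, after scaling for depth, the Spearman correlation was 0.45 to 0.75 for Defb19 with Cst9 and 0.44 to 0.84 for Defb19 with Cst12, over 26 to 283 barcodes that share a library and its depth.

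The levels of neighbouring genes of the same families were not alike. Between Cst12 and Cst9 lie 2 protein-coding cystatin genes, Cst8 and Cst13, which were higher outside the Sertoli-like cluster: 340 CPM inside and 469 outside for Cst8, and 76.9 and 149 CPM for Cst13. Cstl1, before Cst12, was also higher outside, at 100 and 136 CPM. Cst3, which encodes the widely used cystatin C, stood at 529 CPM inside and 67.2 CPM outside, and was highest in the mixed somatic cluster. Cst11 had 6 UMIs in all. Other cystatin genes of the neighbour list have no bar in the plot of the loci. Among them Cstdc1 was far higher inside, as Cst9 and Cst12 were, at 199 CPM inside and 0.492 CPM outside. Cst7 had 3 UMIs inside and 41 outside, Cstdc2 had 1 and 125, and Cst10 had 0 and 0.

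Around Defb19, Defb36 stood at 632 CPM inside and 2.41 CPM outside, and Defb45 at 176 and 0.728 CPM. Both lie on the same side of Defb19. Defb21, 1142 bases away on the other side and on the opposite strand, stood at 2.39 CPM inside and 3.50 CPM outside. The defensin genes Defb22, Defb23, Defb25, Defb26, Defb28 and Defb29 had 0 UMIs in Sertoli-like barcodes. Outside they had only 28, 13, 9, 1, 34 and 3 UMIs, too few for a contrast. Defb20 had 5 UMIs inside and 126 outside. Defb36 is in the marker list that was used to name the cluster.

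**Figure D4:**
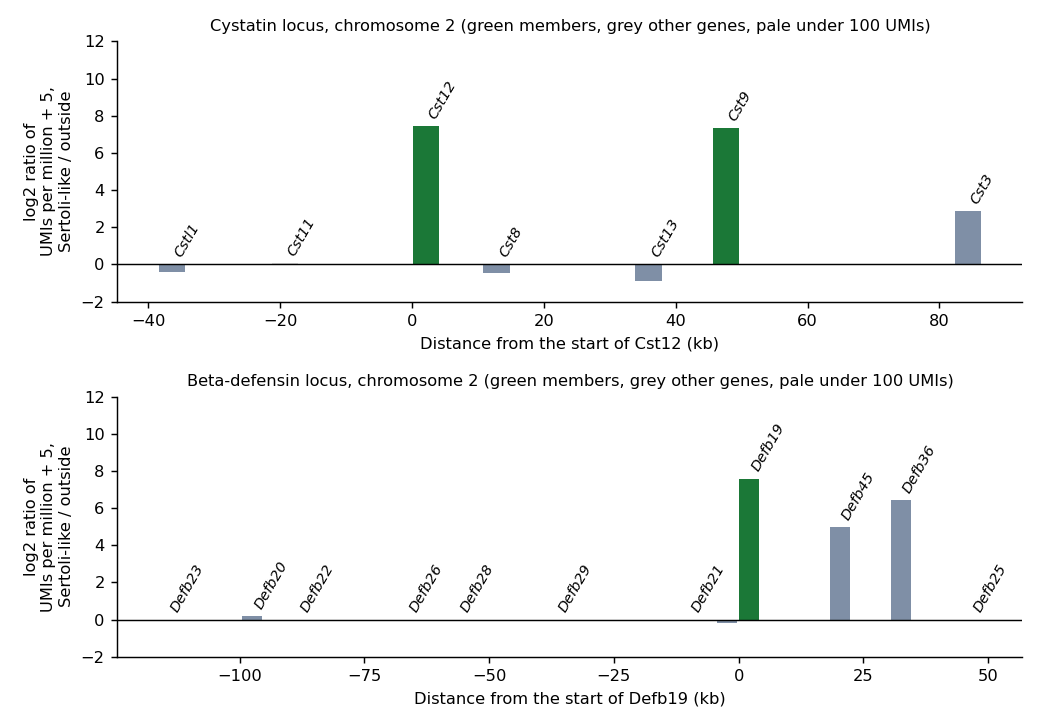
Log2 ratio of CPM + 5, Sertoli-like over outside, for genes of the cystatin locus (top) and the beta-defensin locus (bottom) of chromosome 2, by distance in kb from the start of Cst12 or Defb19. Bars stand at 7.42 for Cst12 and 7.32 for Cst9 with Cst8 (-0.46) and Cst13 (-0.91) between them, and at 7.59 for Defb19 with Defb45 (4.98) and Defb36 (6.43) on one side.

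The genes most like the 10 in their profile over the 14 clusters, by Pearson correlation of log2(CPM + 5) with the mean profile, were Qpct (r = 0.997), Gstm7 (0.997), Inhbb (0.994), Sytl4 (0.993) and Tspan17 (0.993), of 19319 genes compared. Inhbb encodes the beta B subunit that joins the Inha product to form inhibin B, Qpct a glutaminyl cyclase and Gstm7 a glutathione transferase. Their levels inside and outside were 226 and 0.554 CPM for Qpct, 223 and 0.589 CPM for Gstm7 and 40.2 and 0.160 CPM for Inhbb. Among the 10 genes themselves r was 0.992 for Clu, 0.990 for Inha, 0.916 for Gata4 and 0.747 for Trf. Each profile has 14 points, of which 1 is the Sertoli-like cluster, so r is given as a description.

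Between the diets, with 3 libraries a group, 0 of the genes passed the test. In sums over the whole testis Clu stood at 57.3, 6.52 and 9.79 CPM in the libraries labelled HFD and at 69.4, 42.9 and 32.8 CPM in those labelled LFD. Defb19 stood at 76.2, 14.9 and 14.5 CPM against 92.2, 68.3 and 50.6 CPM. Cst12 stood at 37.9, 5.28 and 8.99 CPM against 44.3, 28.4 and 23.7 CPM. In each diet label the replicate 1 library was the highest for these 3 genes, and HFD replicate 1 lay among the LFD values. In whole-testis sums fewer Sertoli cells and less RNA per Sertoli cell cannot be told apart.

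For the less abundant genes too, HFD replicates 2 and 3 were the lowest libraries in the whole testis. Cst9 stood at 35.2, 4.08 and 8.39 CPM in the libraries labelled HFD and at 43.1, 21.9 and 18.0 CPM in those labelled LFD. The transcription factors were near 1 CPM: Sox9 stood at 1.51, 0.235 and 0.534 CPM against 2.51, 1.53 and 1.12 CPM. Wt1 stood at 2.12, 0.309 and 0.578 CPM against 2.79, 1.20 and 1.25 CPM. The groups overlapped for each of them through HFD replicate 1. Trf stood at 1.84, 0.593 and 0.578 CPM against 1.35, 1.35 and 1.28 CPM, so that its highest library was HFD replicate 1. Fshr was counted in 9, 1 and 2 UMIs against 13, 4 and 2 UMIs in whole libraries.

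With edgeR's quasi-likelihood test the log2 change from LFD to HFD label in the whole testis was -0.90 (SE 0.69) for Clu, -0.92 (SE 0.58) for Defb19, -0.79 (SE 0.46) for Inha and -1.10 (SE 0.58) for Sox9, each with an adjusted p of 0.986. At the same adjusted p it was -0.81 (SE 0.61) for Cst12, -0.72 (SE 0.66) for Cst9, -0.73 (SE 0.63) for Wt1, -0.99 (SE 0.59) for Gata4 and -0.31 (SE 0.43) for Trf by edgeR. Of 9 genes tested (Fshr was too low) 0 were called at an adjusted p under 0.05, with 0 at an unadjusted p under 0.05, and of all 20727 genes 0 (0%), with 471 at an unadjusted p under 0.05. DESeq2 called 0 genes as well, with 444 genes at an unadjusted p under 0.05, 1 of them a member, Sox9 (-1.11). The median log2 change of the 9 genes was -0.81 and that of all genes 0.02. All 3 HFD libraries below all 3 LFD libraries was seen in 0 of the 9, as was the opposite, against 4.9% and 1.79% of all genes. The p-values weigh the difference between the labels against the spread between these libraries.

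In Sertoli-like barcodes the mean level of Clu was 2397 ± 1098 CPM in the libraries labelled HFD and 3065 ± 1450 CPM in those labelled LFD (SD, n = 3 each). Defb19 stood at 3197 ± 870 against 4052 ± 1774 CPM and Inha at 412 ± 125 against 528 ± 266 CPM, differences smaller than the spread within a group. On the log2 scale the changes were -0.37 (SE 0.43) for Clu, -0.36 (SE 0.42) for Defb19, -0.36 (SE 0.41) for Inha, -0.04 (SE 0.48) for Wt1 and 0.17 (SE 0.54) for Trf, each with an adjusted p of 0.999 by edgeR. The changes of Cst9 (-0.13), Cst12 (-0.23), Sox9 (-0.48) and Gata4 (-0.44) had that adjusted p too. Called were 0 of 9 genes and 0 of 8368 in all (0%), with 0 and 338 at an unadjusted p under 0.05, and 0 by DESeq2. The median of the 9 was -0.36 against -0.06 over all genes. None of the 9 separated the labels in either direction (2.72% of all genes HFD below, 4.96% above). The SEs, 0.41 for Inha to 0.59 for Gata4, set how small a change could have been seen.

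In the other barcodes Defb19 stood at 20.2, 10.6 and 4.54 CPM in the libraries labelled HFD and at 13.7, 14.4 and 14.4 CPM in those labelled LFD. Clu stood at 8.42, 4.24 and 1.70 CPM against 5.88, 4.85 and 6.58 CPM, with the highest and the lowest library both labelled HFD for each gene. There edgeR called 0 of 9 genes and 0 of 20579 (0%), with 0 and 473 at an unadjusted p under 0.05, while DESeq2 called 1 gene, Hsd3b6, which is no member. The log2 changes of the 9 lay between -0.30 (Gata4) and -0.04 (Cst9), with a median of -0.15 against 0.02 over all genes. None of the 9 separated the labels (4.13% of all genes HFD below, 2.12% above).

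Apart from the replicate 1 pair, the whole-testis levels were well below LFD in the libraries labelled HFD. In log2 CPM the difference of the replicate 1 pair was -0.28 for Clu, -0.22 for Cst12, -0.18 for Inha and 0.44 for Trf. The mean difference of replicates 2 and 3 was -2.23 for Clu, -1.91 for Cst12, -1.60 for Inha and -1.13 for Trf. A fit on those 4 libraries, added after the data were seen, gave -2.20 (SE 0.25, edgeR adjusted p = 0.00460) for Clu and -1.99 (SE 0.21, adjusted p = 0.00460) for Defb19. Cst12 (-1.85, adjusted p = 0.0111), Inha (-1.58, adjusted p = 0.0141) and Cst9 (-1.66, adjusted p = 0.0291) were called too, so that 5 of 9 genes passed against 0.447% of 20822 genes. Sox9 (-1.80), Wt1 (-1.45), Gata4 (-2.10) and Trf (-1.14) did not pass. Both HFD libraries lay below both LFD libraries for 9 of 9 genes, as for 26.5% of all genes. Other lists differed in the whole testis too, and not all in the same direction. The peritubular and stromal list was lower, at 25.97 and 7.46 CPM in HFD replicates 2 and 3 against 60.8 and 35.9 CPM in LFD replicates 2 and 3. The macrophage list was also lower, at 37.9 and 51.3 against 71.2 and 73.3 CPM. The early spermatocyte list was higher, at 878 and 861 against 692 and 407 CPM. HFD replicate 2 also differed in make-up, with 2906 of the 3816 barcodes of cluster 4 and 531 of the 561 of cluster 12. The part of these lists and clusters in the result was not tested.

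In Sertoli-like barcodes of the same 4 libraries the changes were -0.75 (SE 0.54) for Inha, -0.72 (SE 0.62) for Clu and -0.58 (SE 0.67) for Defb19 by edgeR, with SEs above those of the whole testis, and their difference from the whole-testis changes was not tested. Of 7 genes tested there 0 were called, and 0 of 4836 in all (0%), with 368 at an unadjusted p under 0.05 by edgeR. Both HFD libraries lay below both LFD libraries for 0 of 9 genes there (15.8% of all genes). In the other barcodes 0 of 8 tested genes were called (0.0194% of 20641 genes), and 7 of 9, all but Sox9 and Wt1, lay below in both (24.7% of all genes).

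**Figure D5:**
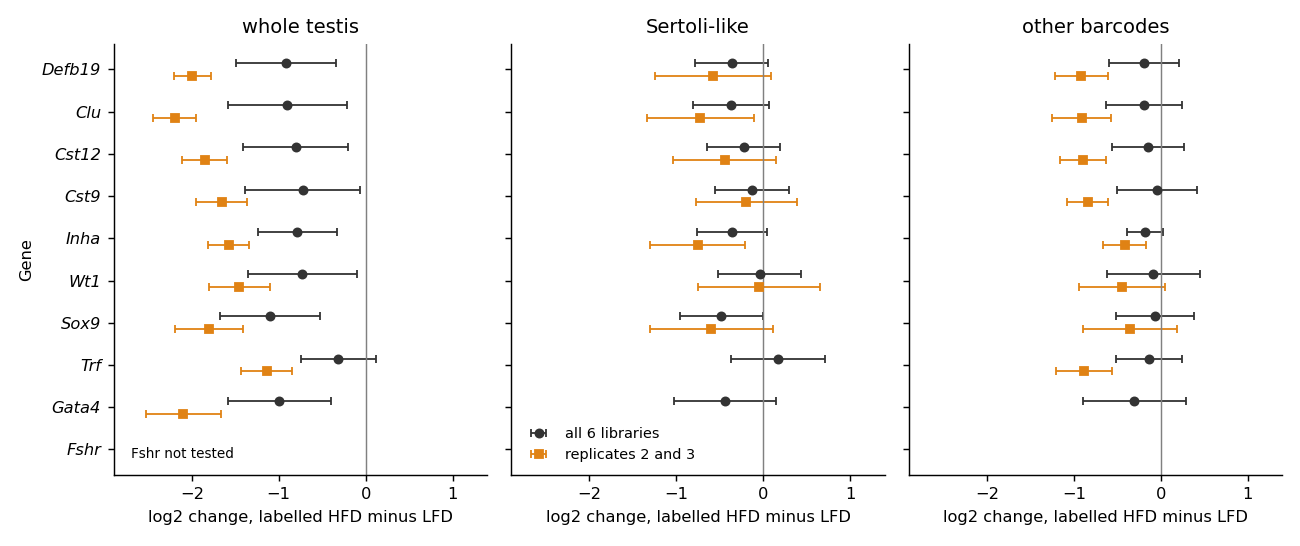
Log2 change (labelled HFD minus LFD) of each gene by edgeR in the sums over all barcodes, Sertoli-like barcodes and other barcodes, with bars of 1 SE, for all 6 libraries (black) and for replicates 2 and 3 (orange). In the whole testis the orange points lie between -2.20 and -1.14 and the black ones between -1.10 and -0.31. In Sertoli-like barcodes the orange points lie between -0.75 and -0.05, with longer bars. Fshr was not tested, and a point is missing where a gene was too low for that fit.

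The share of barcodes that were Sertoli-like moved with these sums. It was 2.59%, 0.320% and 0.392% in the libraries labelled HFD and 4.27%, 0.694% and 0.834% in those labelled LFD, a mean of 1.10% ± 1.29 against 1.93% ± 2.03 (SD, n = 3, two-sided exact permutation p = 0.5, smallest possible 0.1). The difference was -0.833 percentage points, -1.68 in the replicate 1 pair and -0.408 in replicates 2 and 3, where 0.356% ± 0.0508 stood against 0.764% ± 0.0992 (SD, n = 2, exact p = 0.333, the smallest possible). Without LFD replicate 1 the difference turned to 0.335 points. With Sertoli-like barcodes taken by a gate of at least 3 markers in place of the cluster, the shares were 2.78%, 0.886% and 0.405% against 3.999%, 0.910% and 0.973%, so that HFD replicate 2 lay close to LFD replicate 2.

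A list of 32 partner genes of Sertoli cells was tested in the same fits. In the whole testis 31 were tested by edgeR and 0 were called, 25 with a change below 0 and 6 above, at a median of -0.42 against 0.02 for all genes. Kitl, the ligand that spermatogonia need from Sertoli cells, had the smallest p (-0.99, unadjusted p = 0.0498, adjusted p = 0.986). In Sertoli-like barcodes 24 were tested and 0 called, with a median of -0.12, and Etv5, a factor that supports the spermatogonial niche, had the smallest p (-1.13, unadjusted p = 0.0824 by edgeR). In the other barcodes 28 were tested and 0 called, with a median of -0.10.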

How the data were processed

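Testes of 6 mice were dissociated and profiled with the 10x Genomics Chromium 3′ assay, for which the labels and the study's methods name different kit versions. The authors made the UMI counts with Cell Ranger 6.0.1 on mm10, per the labels, and deposited 1 filtered matrix of counts per library, with depths of 39196921 to 95845514 UMIs. Intervals and floors cover counting error only. Diets came from sample titles, against the file names. The member genes and lists were chosen with earlier results of these data known.

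The study's filter of 200 to 40000 genes removed 0 barcodes. Counts per barcode were scaled to 10000 and log-transformed, 2000 variable genes without the members gave 30 principal components and 20 neighbours, and Leiden clustering (leidenalg 0.10.2, resolution 0.3) gave 14 clusters, named from fixed markers. Settings that divide the mixed somatic cluster were chosen after the clusters were seen. Doublet scores (Scrublet method) marked 3356 barcodes (6.86%), 19 of them Sertoli-like, which were kept.

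UMIs were summed per library and tested with edgeR 4.0.16 (TMM, filterByExpr, quasi-likelihood, Benjamini-Hochberg over all genes, called under 0.05) in R 4.3.3. Scripts were tested on simulated data. Alternatives were DESeq2 1.42.0, no filter, a replicate block, a batch term, other definitions of Sertoli-like and each library left out. Named were all members, the 5 genes most like them by cluster profile with at least 100 UMIs, the family neighbours, and the partner gene of smallest p. Other genes were named after their values were seen. Sequences came from RefSeq (GRCm38.p6), which held 4 of the 10 members in the table used here.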

Additional observations from a re-analysis of the deposited data

How the results depend on the processing

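The whole-testis changes of the 9 genes tested turned under no setting run. With a library left out, that of Clu ran from -2.62 (without HFD replicate 1) to -0.44 (without HFD replicate 2) and that of Cst9 from -2.21 (without HFD replicate 1) to -0.20 (without LFD replicate 1). With a term for the replicate 1 libraries that of Clu was -1.51 and 0 genes were called. In Sertoli-like barcodes 5 of 79 values from settings other than leaving out a library turned: with the replicate block Cst9 (0.022), Trf (-0.086) and Wt1 (0.027), with a gate of at least 3 markers Trf (-0.23) and with doublet-scored barcodes left out Wt1 (0.016), on the log2 scale. That gate also moved Defb19 to -1.01, Inha to -0.95, Clu to -0.88 and Sox9 to -1.03, each with an adjusted p of 0.968 by edgeR. With 1 library left out at a time, Sertoli-like changes ran from -0.55 to 0.13 for Cst9, -0.62 to 0.067 for Cst12, -0.56 to 0.58 for Trf, -0.75 to 0.080 for Inha (the latter without LFD replicate 3) and -0.52 to 0.26 for Wt1. In other barcodes they ran from -1.001 to 0.21 for Clu, -0.96 to 0.19 for Defb19, -1.08 to 0.29 for Cst9, -1.01 to 0.21 for Cst12, -0.70 to 0.11 for Trf, -0.40 to 0.26 for Sox9, -0.96 to 0.39 for Wt1 and -1.39 to 0.067 for Gata4. The difference in the Sertoli-like share ran from -1.58 to 0.335 points, the latter without LFD replicate 1. The cause was not tested.

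The same replicate numbers do not mark shared animals, and correlations of deviations within a number were 0.485, 0.0297 and 0.261 in the whole testis, so the numbers were not taken as pairs. HFD replicate 2 correlated best with LFD replicate 3. With the replicate block edgeR called 5 of 9 member genes and 24 genes in all in the whole testis, 2 genes in Sertoli-like and 14 in other barcodes, against 0 in each without it. The fit of replicates 2 and 3 alone, chosen after seeing the data, called 5 member genes and 93 genes in the whole testis and 4 in other barcodes. In other barcodes DESeq2 called 1 gene and a term for the replicate 1 libraries 2, and with no filter on low counts 1 gene was called in Sertoli-like barcodes. With a library left out, 0 to 2 genes were called in the whole testis (2 without HFD replicate 1) and 0 to 1 in Sertoli-like barcodes (1 without LFD replicate 2), none of them members. Fshr, at 31 UMIs in all, was too low for edgeR's filter.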
